A study of Homo sapiens with 16 samples.

Results

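The genes described here make, transport and load the peptides that class I molecules display. They are the immunoproteasome subunits PSMB8, PSMB9 and PSMB10, the PA28 activator subunits PSME1 and PSME2, the peptide transporter subunits TAP1 and TAP2, the loading factors TAPBP and TAPBPL, and the trimming peptidase ERAP1. The 10 genes were chosen by symbol, for their roles and with earlier results of these data known, out of 20802 gene targets counted in each library. Each matched 1 target. Expression was counted in 16 libraries of HEK293, a human embryonic kidney cell line, in 8 groups of 2. Cells carried either optimized receptors, which the series describes as having an optimized geometry, or wild-type receptors. Within each genotype, 1 group was treated with IFNw, a type I interferon, 1 with H11, a form of the type III interferon IFNL3 that the labels call high-affinity, 1 with IFNL3 itself, and 1 was left untreated. Treated cells received 100 nM of ligand. Both a 15 min exposure and a 24 hr time appear in the labels, without a statement of how they relate. The sources used here do not say which receptor chains differ between the genotypes, how they were introduced, or whether a genotype is 1 clone.

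Proteasomes cut cytosolic proteins into peptides. Under interferon, PSMB8, PSMB9 and PSMB10 replace the constitutive catalytic subunits PSMB5, PSMB6 and PSMB7 in newly built particles, which changes the peptides produced, and PA28 caps such particles and opens them. The TAP1 and TAP2 heterodimer pumps peptides into the endoplasmic reticulum, where TAPBP (tapasin) bridges it to class I molecules and selects well-fitting peptides, TAPBPL (TAPBPR) edits peptides away from the transporter, and ERAP1 trims long peptides to length. Many of these genes lie in the major histocompatibility complex and are classical interferon targets.

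Library totals lay between 5331203 and 9822088 reads, and between 14033 and 15250 targets had a read. The 2 libraries of a group are called biological replicates in the labels. The p-values rest on the spread between such libraries, estimated over all 8 groups together. Replicates were least alike in untreated optimized cells, with a Pearson's r of log2 CPM across genes of 0.965, against 0.983 to 0.986 in the other groups. That group is the reference for each response in optimized cells, and its wider spread enters only through the shared estimate. HEK293 markers (PAX2, LIN28B, VIM, NES and CDH2) summed to between 353 and 687 CPM (reads scaled to the library's total) and none was at 0, while blood markers summed to at most 2.4 CPM, with LYZ at 0. Markers of professional antigen-presenting cells and class II summed to at most 0.402 CPM with ITGAX at 0, and hepatocyte markers to at most 0.536 CPM with ALB, SERPINA1 and TTR at 0. Fibroblast markers summed to between 7.93 and 20.6 CPM, with COL1A2, COL3A1 and LUM at 0. Each library also had a trend with transcript length across 12100 genes. Its Spearman's rho lay between -0.440 and -0.415 in the IFNw libraries of both genotypes and the H11 libraries of optimized cells, between 0.382 and 0.413 in the H11 and IFNL3 libraries of wild-type cells, and between 0.065 and 0.164 in the remaining libraries. The members' median transcript lengths ran from 787 bases (PSMB9) to 1218 bases (PSMB10) for the proteasome subunits, and reached 5676 bases for TAP2 and 5150 bases for ERAP1, so results are also given with this trend removed where that changed a call.

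The promoters of the members were searched for a sequence feature. Many members are classical interferon targets, chosen with earlier results of these data known. The share of members with a match is thus not independent of that choice. The interferon-stimulated response element binds complexes that hold IRF9 and other IRF proteins, and its core was searched as GAAANNGAAA, which reads TTTCNNTTTC on the other strand. RefSeq windows (GRCh38.p14) from 250 bases before to 50 bases after a transcript start were found for all 10 members, in 14 windows. The core lay in a window of 8 of 10 members, against 4.4% of 27303 genes and 3.6% of 35114 windows. The stretches around these 8 matches are shown because they are the part of the promoters that most members share, 60 bases each, 5′ to 3′ on the gene's strand, with the matched core in capitals:
PSMB8: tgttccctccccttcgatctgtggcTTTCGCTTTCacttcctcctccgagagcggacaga
PSMB10: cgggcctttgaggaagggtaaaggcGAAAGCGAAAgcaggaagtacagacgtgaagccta
PSME1: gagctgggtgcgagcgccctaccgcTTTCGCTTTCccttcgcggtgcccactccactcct
PSME2: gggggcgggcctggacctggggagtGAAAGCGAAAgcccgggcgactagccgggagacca
TAP1: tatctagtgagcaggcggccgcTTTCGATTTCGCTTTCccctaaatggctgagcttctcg
TAP2: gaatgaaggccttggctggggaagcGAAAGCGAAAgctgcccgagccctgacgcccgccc
TAPBP: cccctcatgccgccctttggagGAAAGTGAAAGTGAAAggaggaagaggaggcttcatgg
ERAP1: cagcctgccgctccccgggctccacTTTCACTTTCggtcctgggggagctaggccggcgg

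The cores lay close to the start of the transcript whose window holds it, counted as base 1, in 7 of these 8 genes. They spanned bases -4 to 6 in PSMB8 (chr6:32844017-32844076, minus strand), -21 to -12 in PSMB10 (chr16:67936837-67936896, minus strand), 6 to 15 in PSME1 (chr14:24136174-24136233, plus strand) and -28 to -19 in PSME2 (chr14:24146604-24146663, minus strand). In TAP2 the core spanned bases -58 to -49 (chr6:32838763-32838822, minus strand), and in ERAP1 bases 3 to 12 (chr5:96807909-96807968, minus strand). TAPBP (chr6:33314061-33314120, minus strand) and TAP1 (chr6:32853801-32853860, minus strand) each held a pair of overlapping cores, from -20 to -5 in TAPBP and, farther upstream, from -134 to -119 in TAP1. PSMB9 and TAPBPL held no match in their windows, which says only that these letters are not there. TAP1 and PSMB9 are transcribed away from each other from starts 488 bases apart, and the core listed under TAP1 lies between those starts. The core of the gamma-activated site, TTCNNNGAA, the same on both strands, lay in windows of 2 members, PSMB8 and TAP1, against 9.4% of genes. These are matches of letters, and binding was not measured.

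The immunoproteasome subunits were high with IFNw in both genotypes, and high with the type III ligands in optimized cells. PSMB8 stood at 592 and 589 CPM with IFNw, 619.9 and 603 CPM with H11, 331 and 337 CPM with IFNL3, and 66.7 and 78.6 CPM untreated in optimized cells. Wild-type cells had 566 and 617 CPM of PSMB8 with IFNw, 56.8 and 59.2 CPM with H11, 52.4 and 62.8 CPM with IFNL3, and 63.6 and 74.3 CPM untreated. The IFNw libraries of both genotypes and the H11 libraries of optimized cells lay together at 566 CPM or more, IFNL3 in optimized cells lay between, and the other 4 groups lay at 78.6 CPM or less. Such bulk levels cannot tell more cells that express a gene apart from more RNA per cell. PSMB9 followed the same order, with 296 and 351 CPM (IFNw), 308 and 314 CPM (H11), 114 and 134 CPM (IFNL3) and 18.2 and 21.9 CPM (untreated) in optimized cells. Its levels in wild-type cells were 343 and 344 CPM (IFNw), 10.3 and 15.0 CPM (H11), 13.1 and 17.9 CPM (IFNL3) and 12.4 and 13.2 CPM (untreated). Only the IFNw libraries of wild-type cells lay apart from the untreated ones. PSMB10 had 313 and 266 CPM with IFNw, 279.7 and 245 CPM with H11, 129 and 126 CPM with IFNL3, and 61.7 and 60.7 CPM untreated in optimized cells. In wild-type cells PSMB10 had 256 and 259 CPM with IFNw, 74.1 and 62.8 CPM with H11, 60.3 and 62.9 CPM with IFNL3, and 57.9 and 57.3 CPM untreated. The type III libraries of wild-type cells lay slightly above the untreated ones for PSMB10, and those of PSMB8 slightly below.

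In optimized cells all 3 subunits rose with every ligand (edgeR quasi-likelihood test, Benjamini-Hochberg adjusted p of 1.9e-05 or less). PSMB9 rose most, 16.3-fold with IFNw (log2 4.02 ± 0.19 SE), 15.7-fold with H11 (3.97 ± 0.19) and 6.22-fold with IFNL3 (2.64 ± 0.18). PSMB8 rose 8.15-fold with IFNw (3.03 ± 0.13), 8.44-fold with H11 (3.08 ± 0.13) and 4.62-fold with IFNL3 (2.21 ± 0.13). PSMB10 rose 4.72-fold, 4.28-fold and 2.08-fold with IFNw, H11 and IFNL3, in that order. Wild-type cells gave rises of 26.9-fold for PSMB9 (4.75 ± 0.19), 8.58-fold for PSMB8 (3.10 ± 0.13) and 4.46-fold for PSMB10 (2.16 ± 0.13) with IFNw. With H11 in wild-type cells the log2 changes were -0.25 ± 0.13 for PSMB8, -0.01 ± 0.19 for PSMB9 and 0.25 ± 0.13 for PSMB10. With IFNL3 they were -0.26 ± 0.13, 0.28 ± 0.19 and 0.10 ± 0.13 for PSMB8, PSMB9 and PSMB10. None of these 6 changes passed the threshold, and the upper ends of their 95% intervals lay between 0.01 and 0.68.

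**Figure D1:**
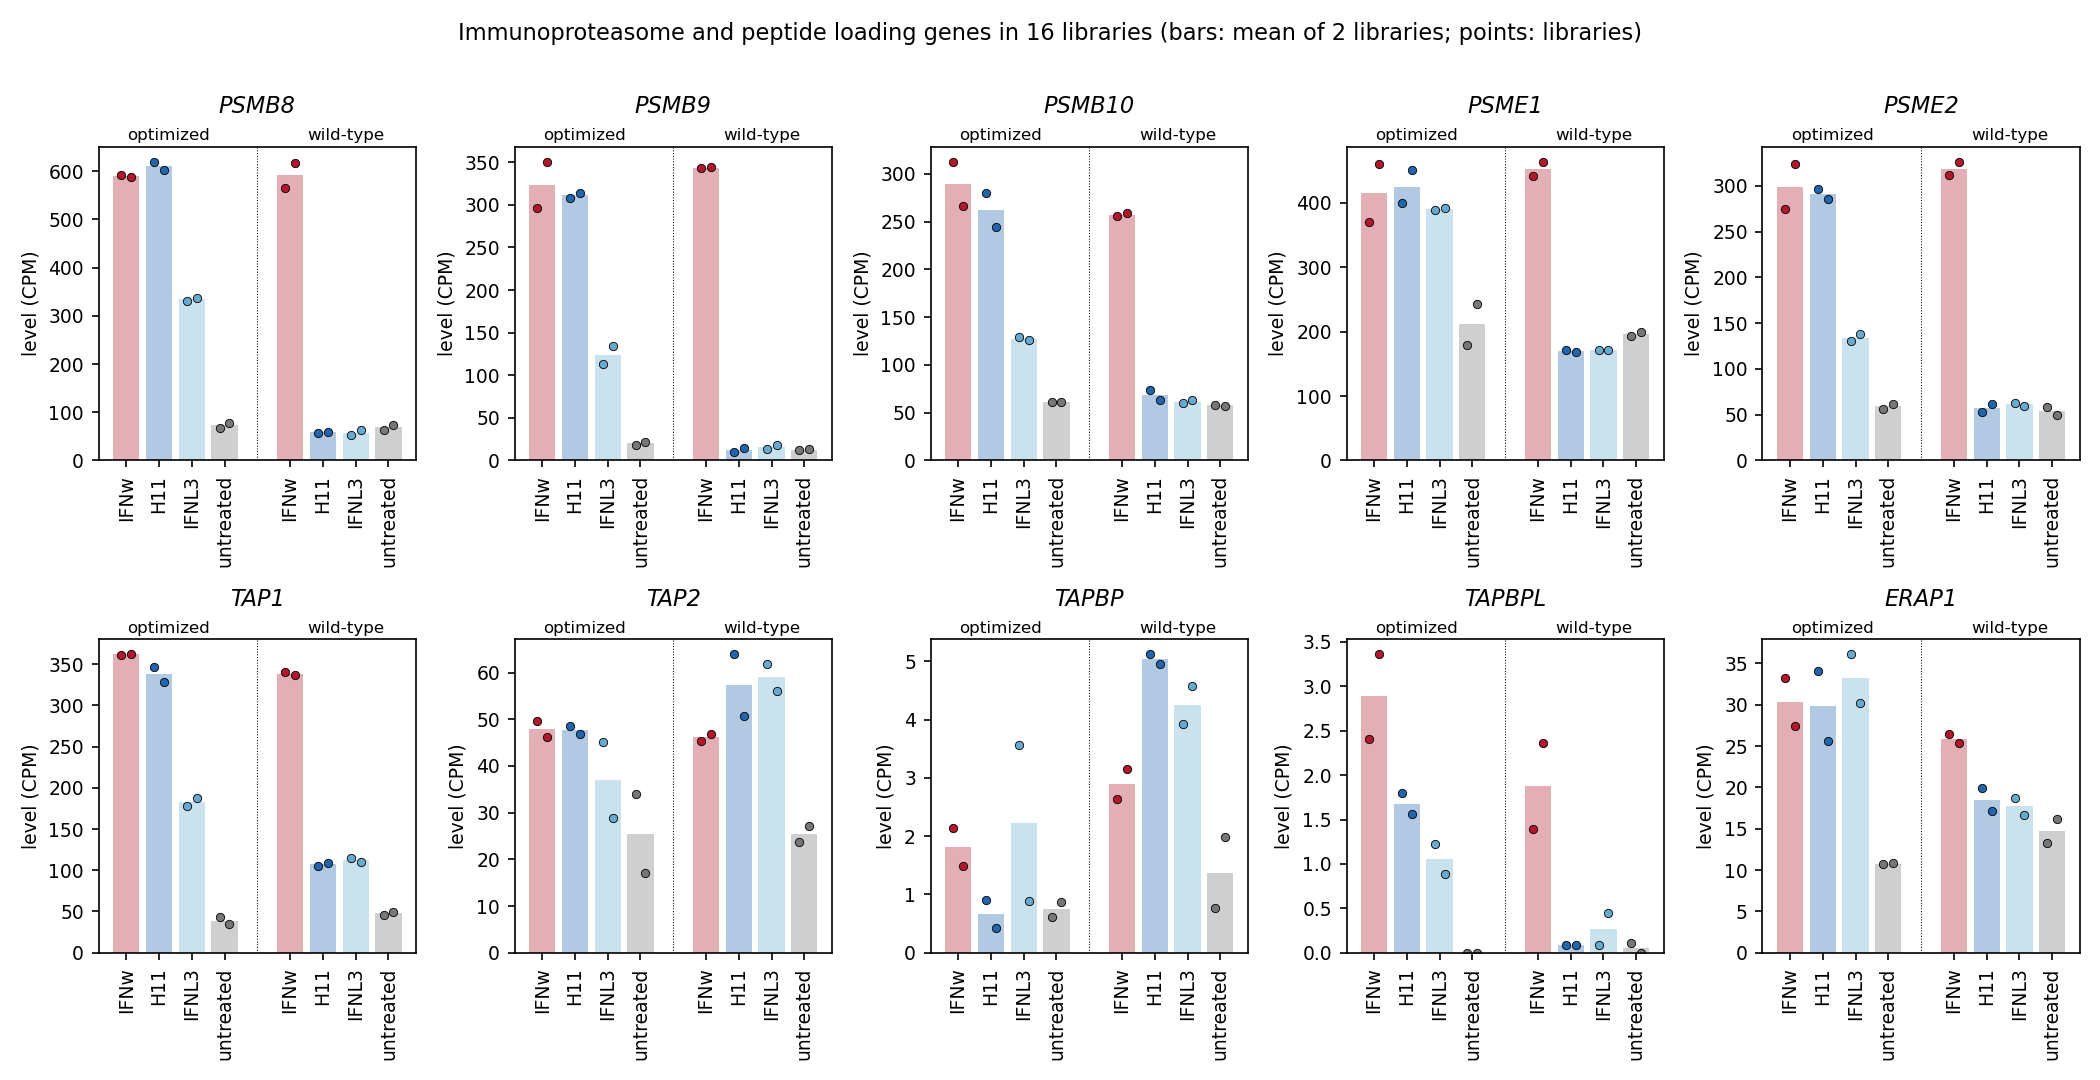
Level of each of the 10 genes in CPM (vertical axis, from 0, its own scale in each panel) in the 8 groups, with optimized cells left and wild-type cells right of the dotted line. Bars are means of 2 libraries and points are libraries. In wild-type cells with H11 and IFNL3, PSMB8 stands between 52.4 and 62.8 CPM, while TAP1, TAP2 and TAPBP stand above their untreated libraries.

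The PA28 subunits behaved like the immunoproteasome subunits, with smaller changes for PSME1. PSME1 had 371 and 459.6 CPM with IFNw, 399 and 450.4 CPM with H11, 389.5 and 392 CPM with IFNL3, and 179 and 243 CPM untreated in optimized cells. Wild-type cells had 442 and 464 CPM of PSME1 with IFNw, 171 and 169 CPM with H11, 171 and 171 CPM with IFNL3, and 194 and 199.6 CPM untreated. The treated and untreated libraries of optimized cells did not overlap, and the H11 and IFNL3 libraries of wild-type cells all lay below the untreated ones. PSME2 had 274 and 323 CPM with IFNw, 296 and 286 CPM with H11, 130.2 and 138 CPM with IFNL3, and 56.7 and 61.3 CPM untreated in optimized cells. In wild-type cells PSME2 had 311 and 326 CPM with IFNw, 53.4 and 61.9 CPM with H11, 62.6 and 60 CPM with IFNL3, and 58.0 and 49.8 CPM untreated.

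PSME2 rose 5.07-fold with IFNw (log2 2.34 ± 0.13 SE), 4.94-fold with H11 (2.31 ± 0.13) and 2.27-fold with IFNL3 (1.19 ± 0.13) in optimized cells, and 5.91-fold with IFNw in wild-type cells (2.56 ± 0.13). PSME1 rose 1.97-fold with IFNw (0.98 ± 0.14), 2.01-fold with H11 (1.01 ± 0.14) and 1.85-fold with IFNL3 (0.89 ± 0.14) in optimized cells, and 2.30-fold with IFNw in wild-type cells (1.20 ± 0.14). With the length trend removed, PSME1 changed by log2 0.54, 0.61 and 0.78 with IFNw, H11 and IFNL3 in optimized cells. It changed by 0.82 with IFNw in wild-type cells. The largest edgeR quasi-likelihood adjusted p among these 8 rises, as reported, was 0.00039, for PSME1 with IFNL3, which was at 0.068 when the compared groups were fitted alone. H11 and IFNL3 in wild-type cells gave log2 changes of -0.21 ± 0.14 and -0.20 ± 0.14 for PSME1 and of 0.10 ± 0.13 and 0.19 ± 0.13 for PSME2, none past the threshold. The deposited annotation of the PSME2 target joins the Entrez identifiers of PSME2 and of a microRNA gene, and PSME2 has processed pseudogenes. How reads were divided among them is not stated.

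The transporter subunits TAP1 and TAP2 rose with every ligand in wild-type cells, the type III ligands included. TAP1 had 362 and 362 CPM with IFNw, 347 and 328 CPM with H11, 178 and 188 CPM with IFNL3, and 42.7 and 35.2 CPM untreated in optimized cells. In wild-type cells TAP1 had 340.1 and 336 CPM with IFNw, 105 and 109 CPM with H11, 115 and 109.6 CPM with IFNL3, and 45.8 and 49.8 CPM untreated. All 4 libraries of wild-type cells with a type III ligand lay above both untreated libraries and below the IFNL3 libraries of optimized cells. TAP2 had 49.5 and 46.2 CPM with IFNw, 48.5 and 46.7 CPM with H11, 45.1 and 28.8 CPM with IFNL3, and 33.9 and 17.0 CPM untreated in optimized cells. Wild-type cells had 45.4 and 46.9 CPM of TAP2 with IFNw, 64.0 and 50.6 CPM with H11, 61.9 and 56.1 CPM with IFNL3, and 23.7 and 27.2 CPM untreated. As reported, TAP2 was thus at its highest in wild-type cells with H11 or IFNL3, where the immunoproteasome subunits stood near their untreated levels. That order did not hold throughout with the length trend removed. TAP2 was then at log2 0.19 for IFNw minus IFNL3 and 0.22 for IFNw minus H11 in wild-type cells. Optimized minus wild-type cells gave 0.25 with H11 and -0.43 with IFNL3, and none of these values passed the threshold.

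TAP1 rose 9.24-fold with IFNw (log2 3.21 ± 0.13 SE), 8.62-fold with H11 (3.11 ± 0.13) and 4.68-fold with IFNL3 (2.23 ± 0.12) in optimized cells. In wild-type cells it rose 7.07-fold with IFNw (2.82 ± 0.12), 2.24-fold with H11 (1.16 ± 0.12) and 2.35-fold with IFNL3 (1.23 ± 0.12), with edgeR quasi-likelihood adjusted p-values of 1.5e-11, 1.2e-06 and 6.5e-07. For TAP2 in wild-type cells the rise was 2.25-fold with H11 (1.17 ± 0.24) and 2.32-fold with IFNL3 (1.21 ± 0.24). With IFNw TAP2 rose 1.81-fold in wild-type cells (0.86 ± 0.24, edgeR quasi-likelihood adjusted p = 0.012), which did not hold without untreated replicate 1 (0.76) or without IFNw replicate 2 (0.87). In optimized cells TAP2 rose with IFNw (0.88 ± 0.24) and H11 (0.87 ± 0.24), but neither held without untreated replicate 2, where the values were 0.50 and 0.49, nor did that with H11 when the compared groups were fitted alone (0.92). The change with IFNL3 there was 0.51 ± 0.24, not past the threshold, and 1.12 without untreated replicate 1, which was past it.

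Because TAP1 and PSMB9 share a divergent promoter region, their reads were also set against each other within each library, where scaling between libraries cancels. Reads of TAP1 per read of PSMB9 were 1.22 and 1.03 with IFNw, 1.13 and 1.04 with H11, 1.57 and 1.41 with IFNL3, and 2.35 and 1.61 untreated in optimized cells. In wild-type cells the ratio was 0.99 and 0.977 with IFNw, 10.2 and 7.28 with H11, 8.82 and 6.14 with IFNL3, and 3.7 and 3.79 untreated. The ratio thus lay above the untreated libraries with the type III ligands in wild-type cells, and below them with the same ligands in optimized cells. The targets differ, so only the change of the ratio between groups can be read, and the trend with transcript length does not cancel in it.

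**Figure D2:**
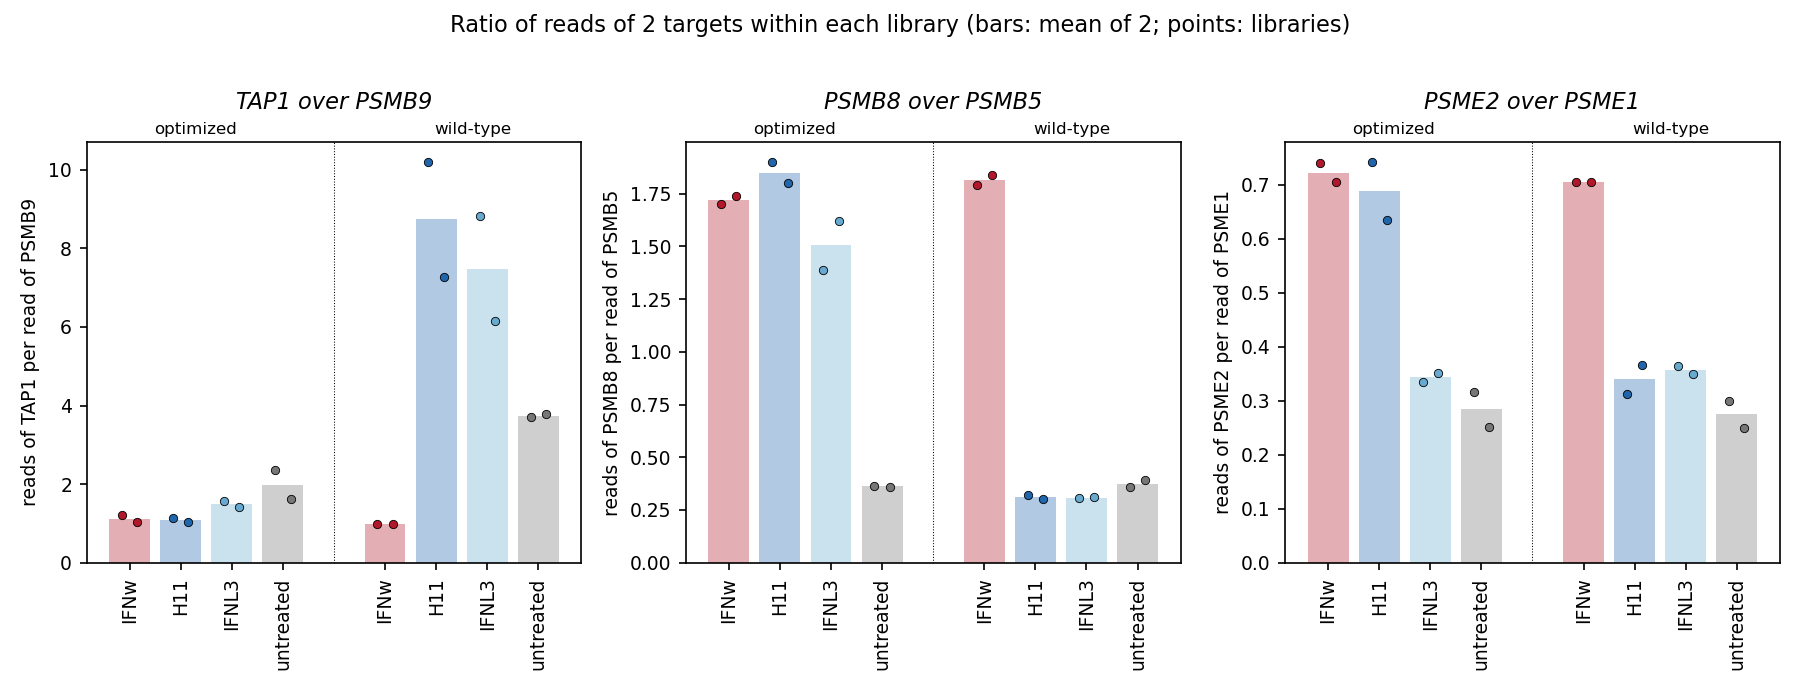
Reads of 1 target per read of another within each library (vertical axes, from 0) for TAP1 over PSMB9, PSMB8 over PSMB5 and PSME2 over PSME1, in the 8 groups. Bars are means of 2 libraries and points are libraries. TAP1 over PSMB9 averages 8.73 with H11 and 7.48 with IFNL3 in wild-type cells, against 3.74 in untreated wild-type cells.

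TAPBP and TAPBPL had few reads, so their values carry wide errors, and how well these targets capture their transcripts was not tested. Both passed the filter on low counts only through libraries of treated cells. Of the 4 untreated libraries, 1 was over that filter for TAPBP and 0 for TAPBPL. For both, values are therefore given as a description, and no call of either is read as a result. For TAPBPL, no test against untreated cells is given. TAPBP had 16 and 12 reads with IFNw, 7 and 3 with H11, 35 and 8 with IFNL3, and 6 and 5 untreated in optimized cells. Wild-type cells had 19 and 24 reads of TAPBP with IFNw, 59 and 60 with H11, 44 and 51 with IFNL3, and 7 and 20 untreated. The H11 and IFNL3 libraries of wild-type cells held the most reads. The fitted change of TAPBP over untreated cells there was 3.60-fold with H11 (log2 1.85 ± 0.51 SE) and 3.03-fold with IFNL3 (1.60 ± 0.51). Without untreated replicate 1 the changes were 1.33 and 1.09, and without IFNL3 replicate 2 that with IFNL3 was 1.49. The other log2 changes of TAPBP were 1.33 ± 0.69 with IFNw, -0.09 ± 0.83 with H11 and 1.64 ± 0.65 with IFNL3 in optimized cells, and 1.05 ± 0.55 with IFNw in wild-type cells. In optimized cells, the change of TAPBP with IFNL3 was 2.30 without IFNL3 replicate 2.

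TAPBPL was not detected in untreated optimized cells, where a count of 0 over both libraries allows a level of up to 0.193 CPM. It had 18 and 27 reads with IFNw, 14 and 11 with H11, and 12 and 8 with IFNL3 in optimized cells. Set against a floor of 3 reads over the untreated group, these were at least 15-fold, 8.73-fold and 5.51-fold higher. In wild-type cells TAPBPL had 10 and 18 reads with IFNw, 1 and 1 with H11, 1 and 5 with IFNL3, and 1 and 0 untreated. The ratio of IFNw to untreated wild-type cells was 36.4, with an exact 95% counting interval from 6.02 to 1490. That of IFNL3 was 5.17, with an interval from 0.627 to 238.

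ERAP1 had its highest means in optimized cells with any of the ligands, although the H11 libraries there overlapped those of wild-type cells with IFNw. It had 33.2 and 27.4 CPM with IFNw, 34.1 and 25.6 CPM with H11, 36.1 and 30.2 CPM with IFNL3, and 10.7 and 10.9 CPM untreated in optimized cells. Wild-type cells had 26.4 and 25.3 CPM with IFNw, 19.9 and 17.1 CPM with H11, 18.8 and 16.7 CPM with IFNL3, and 13.2 and 16.2 CPM untreated. ERAP1 rose 2.81-fold with IFNw (log2 1.49 ± 0.20 SE), 2.78-fold with H11 (1.47 ± 0.20) and 3.08-fold with IFNL3 (1.62 ± 0.19) in optimized cells, and 1.76-fold with IFNw in wild-type cells (0.81 ± 0.19, edgeR quasi-likelihood adjusted p = 0.0030). It was the only member, apart from TAPBP, whose largest fitted change in optimized cells was with IFNL3. The differences between ligands did not pass for ERAP1 in optimized cells. With the length trend removed that order was lost, with changes of 1.75, 1.72 and 1.62 for ERAP1 with IFNw, H11 and IFNL3. With H11 and IFNL3 in wild-type cells the reported changes of ERAP1 were 0.33 ± 0.19 and 0.27 ± 0.19, not past the threshold.

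Counts and medians are given over the 8 members that pass the low-count filter on the untreated libraries alone, which leaves out TAPBP and TAPBPL. All 8 rose with IFNw in optimized cells, against 17.5% of the 12704 genes tested. All 8 also rose with H11 in optimized cells, against 17.2% of all genes, and 7 rose with IFNL3, against 7.26%. In wild-type cells all 8 rose with IFNw, against 16.6% of all genes. There, 2 of the 8 rose with H11 and 2 with IFNL3 (TAP1 and TAP2 both times), against 18.2% and 18.7% of all genes, shares that differ little from those of the members. No member fell in any of these 6 comparisons by edgeR's quasi-likelihood test, none had a negative change at an unadjusted p under 0.05, and none fell by DESeq2. Of all genes, 15.9%, 15.2% and 6.05% fell with IFNw, H11 and IFNL3 in optimized cells, and 14.8%, 20.6% and 21.1% in wild-type cells. Among so few members a count of 0 is near those shares and is not read as a result about them. The median log2 change was 2.29 with IFNw, 2.20 with H11 and 1.40 with IFNL3 in optimized cells, and 2.36, 0.17 and 0.23 with the same ligands in wild-type cells. Over all genes these medians lay between -0.05 and -0.01.

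**Figure D3:**
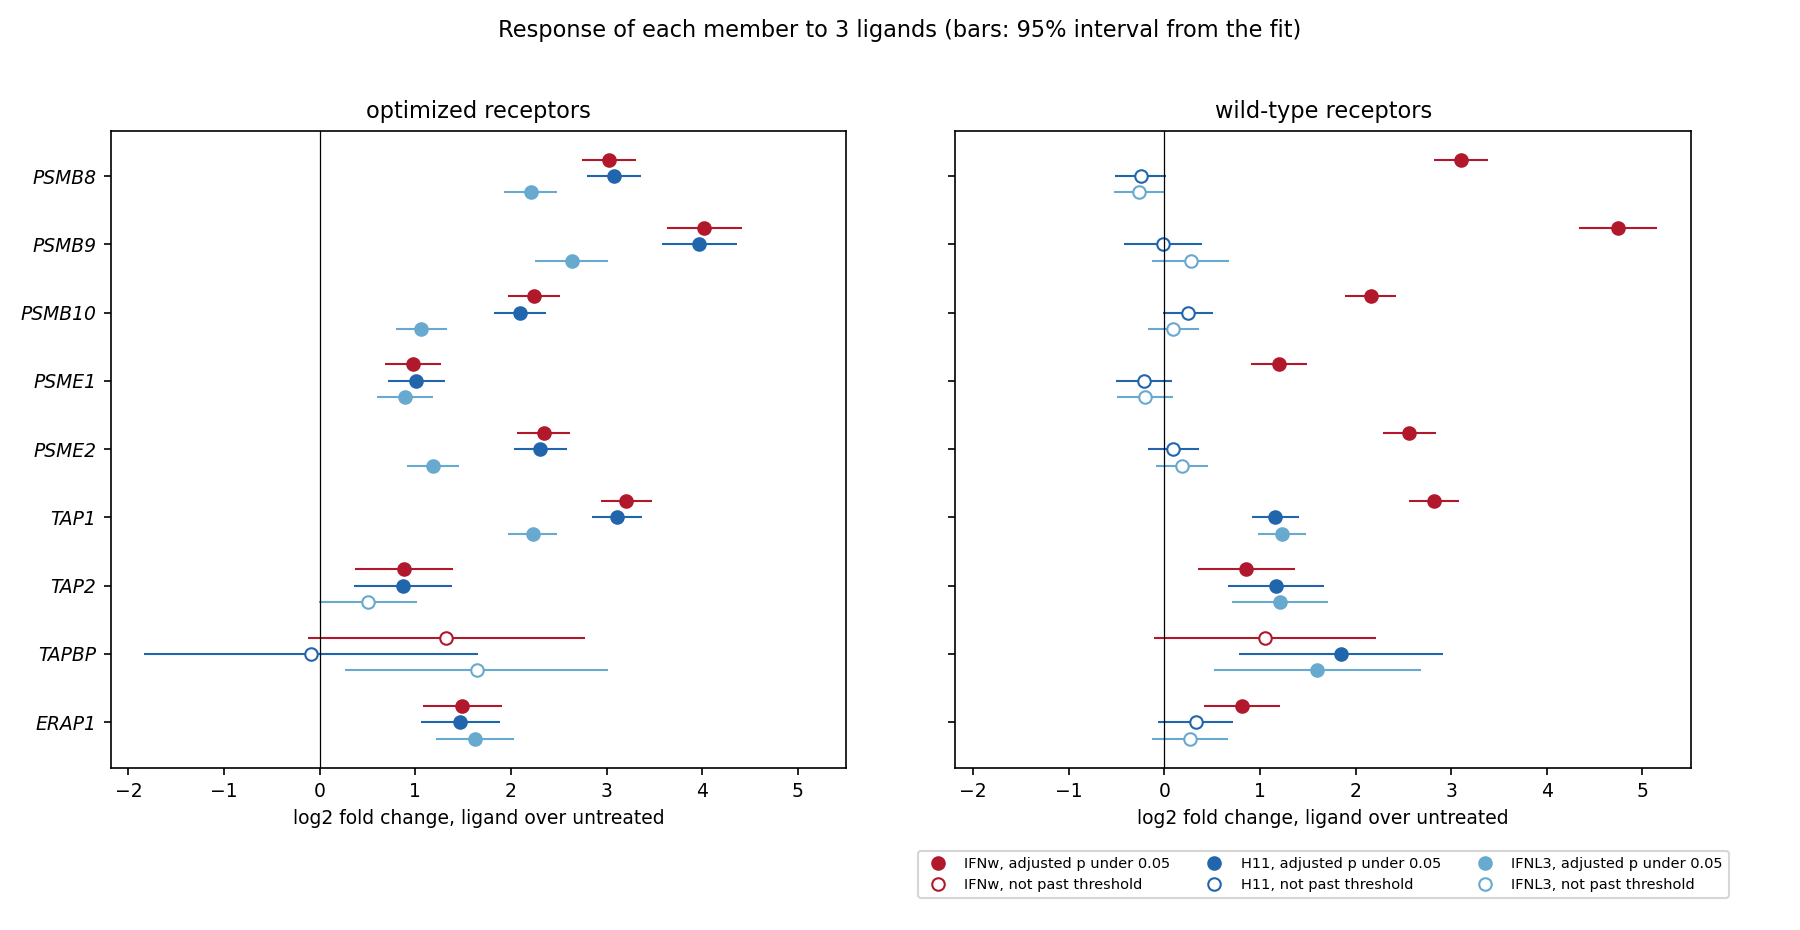
Log2 fold change of 9 members, each ligand over untreated cells (horizontal axis), in optimized cells (left) and wild-type cells (right). Bars are 95% intervals and filled points have an adjusted p under 0.05. TAPBPL, with 0 or 1 read in the untreated groups, is left out. The points of TAPBP, which passed the low-count filter only through libraries of treated cells, are a description. In wild-type cells the H11 and IFNL3 points of PSMB8, PSMB9, PSMB10, PSME1 and PSME2 lie between -0.26 and 0.28, while those of TAP1 lie at 1.16 and 1.23.

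Genes of an interferon panel rose in wild-type cells with the type III ligands too. All 11 genes of this panel rose with each ligand in each genotype. Of all genes, 17.5%, 17.2% and 7.26% rose with IFNw, H11 and IFNL3 in optimized cells, and 16.6%, 18.2% and 18.7% in wild-type cells. With H11 in wild-type cells IRF9, a part of the complex that binds the response element, rose by a log2 change of 4.63 ± 0.16. IRF1, a factor that also acts on PSMB9 and TAP1, had 8.07 and 8.93 CPM with IFNw, 20.7 and 18.2 CPM with H11, 20.9 and 22.2 CPM with IFNL3, and 5.86 and 5.28 CPM untreated in wild-type cells. The class I transactivator NLRC5 had 25.2 and 30.2 CPM with IFNw, 57.2 and 63.4 CPM with H11, 60.8 and 74.3 CPM with IFNL3, and 6.18 and 8.97 CPM untreated in the same cells. Both genes were lower with IFNw than with H11 or IFNL3 there (edgeR quasi-likelihood adjusted p of 5.8e-05 or less). NLRC5 rose by log2 1.61 ± 0.19 with H11 and 1.42 ± 0.19 with IFNL3 in optimized cells, against 2.98 ± 0.19 and 3.15 ± 0.19 in wild-type cells. The response of NLRC5, optimized minus wild-type, was -1.37 ± 0.27 with H11 and -1.73 ± 0.27 with IFNL3 (edgeR adjusted p = 0.00074 and 0.00036). Values with the length trend removed were taken for members only, so its part in these changes and differences was not tested.

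In the fit as reported, the class I chains that receive the peptides, like the immunoproteasome subunits, had no rise past the threshold with type III ligands in wild-type cells. For PSMB9 with IFNL3 and PSMB10 with both ligands this changed with the length trend removed, as given below. B2M, the light chain, had 6278 and 6208 CPM with H11, 2387 and 2375 CPM with IFNL3, and 476 and 217 CPM untreated in optimized cells. In wild-type cells B2M had 414.5 and 426 CPM with H11, 406 and 400.4 CPM with IFNL3, and 517 and 572 CPM untreated, a log2 change of -0.38 ± 0.21 and -0.43 ± 0.21 that did not pass the threshold. The heavy chain HLA-B had 838 and 841 CPM with H11, 367 and 383 CPM with IFNL3, and 144 and 83.7 CPM untreated in optimized cells. Wild-type cells had 89.1 and 102 CPM of HLA-B with H11, 92.8 and 86.4 CPM with IFNL3, and 136 and 133 CPM untreated. HLA-B rose in optimized cells by log2 2.88 ± 0.18 with H11 and 1.71 ± 0.17 with IFNL3, and fell in wild-type cells by 0.49 ± 0.17 with H11 and 0.58 ± 0.17 with IFNL3 (edgeR quasi-likelihood adjusted p of 0.030 or less). HLA-E, a non-classical heavy chain, rose by 2.23 ± 0.14 with H11 and 1.28 ± 0.14 with IFNL3 in optimized cells, against changes of 0.17 ± 0.14 and 0.09 ± 0.14 in wild-type cells that did not pass. With IFNw HLA-B, HLA-E and B2M rose in both genotypes, by between 2.09 ± 0.14 and 4.13 ± 0.24. Reads of class I heavy chains may be shared among near-identical genes, so their levels are uncertain. The part of the length trend in the changes of these chains, the small falls of HLA-B among them, was not tested.

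**Figure D4:**
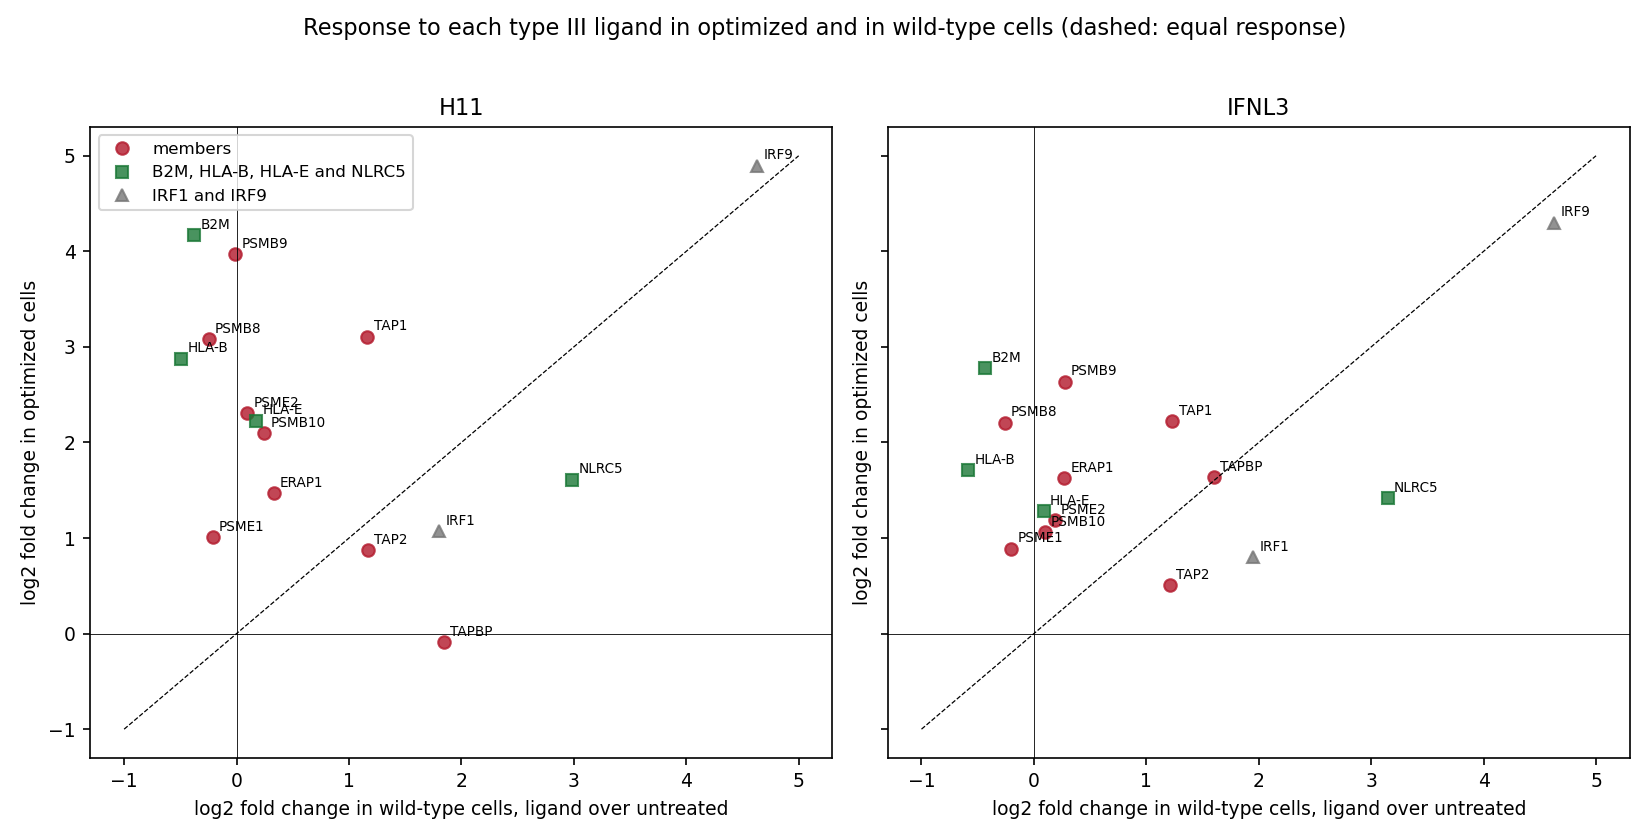
Log2 fold change over untreated cells in optimized cells (vertical axis) against wild-type cells (horizontal axis) for H11 (left) and IFNL3 (right). Circles are members, squares are B2M, HLA-B, HLA-E and NLRC5, and triangles are IRF1 and IRF9, and TAPBPL, with 3 or fewer reads in the untreated groups, is left out. PSMB9 lies at 3.97 and -0.01 for H11, far above the dashed line of equal response, while IRF9 lies close to it in that panel.

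In wild-type cells the libraries with a type III ligand are also those with the strongest positive trend with transcript length, so the members' values were recomputed with that trend removed. In wild-type cells with H11, PSMB10 (log2 0.53) and PSME2 (0.43) then passed the threshold, and PSMB8 (0.05), PSMB9 (0.32) and PSME1 (0.10) did not. With IFNL3, PSMB9 (0.61), PSMB10 (0.38) and PSME2 (0.52) passed it, and PSMB8 (0.04) and PSME1 (0.12) did not. Of the same 8 members, 4 then rose with H11 and 5 with IFNL3, in place of 2 and 2. The share of all genes that rose in this fit is not given here. These 2 counts are therefore not read as a result about the members. TAP1 had 1.22 with H11 and 1.28 with IFNL3, and TAP2 0.98 and 1.01, after the same correction.

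Between the genotypes, the members differed with the type III ligands. With IFNw 0 of 10 members and 0 of 12704 genes (0.00%) were called between optimized and wild-type cells by edgeR's quasi-likelihood test. At an unadjusted p under 0.05 there were 0 members and 440 genes, and DESeq2 called 0. The 95% intervals of the differences lay within -0.26 to 0.25 for PSMB8 and -0.42 to 0.25 for PSMB9. Untreated cells also gave 0 called members and 0.00% of genes by edgeR and 0 by DESeq2, with 3 members and 705 genes at an unadjusted p under 0.05. Those 3 were PSMB9, higher in optimized cells by 0.64 ± 0.19, TAP1, at -0.29 ± 0.12, and ERAP1, at -0.45 ± 0.20. Without untreated optimized replicate 1, PSMB9 (0.78) and TAP1 (-0.44) passed the threshold.

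With H11, 7 of the 8 members were higher in optimized than in wild-type cells, against 25.6% of all genes, while 26.1% of all genes were lower. The largest difference was that of PSMB9 (log2 4.62 ± 0.19 SE), followed by PSMB8 (3.40 ± 0.14), PSME2 (2.34 ± 0.13), PSMB10 (1.94 ± 0.13), TAP1 (1.66 ± 0.12), PSME1 (1.32 ± 0.14) and ERAP1 (0.69 ± 0.18). With the length trend removed, 4 of these differences were over 1.5 times smaller as folds, at log2 3.83 for PSMB9, 2.76 for PSMB8, 1.56 for PSME2 and 0.63 for PSME1. The edgeR quasi-likelihood adjusted p was 0.0040 for ERAP1, which did not pass without optimized H11 replicate 1 (0.48), and 6.2e-07 or less for the other 6. TAPBPL was 19.9-fold higher, with an exact 95% counting interval from 4.96 to 173. As a description, TAPBP was at a log2 difference of -2.88 ± 0.60, on 10 reads in optimized and 119 reads in wild-type cells. TAP2, at -0.27 ± 0.23, did not pass, nor did it with the length trend removed, where it was at 0.25. With IFNL3, 7 of the 8 were higher in optimized cells, against 18.1% of all genes, and 1 was lower, against 15.1%. The higher ones were PSMB9 (3.0 ± 0.18), PSMB8 (2.54 ± 0.13), PSME1 (1.19 ± 0.14), PSME2 (1.13 ± 0.13), PSMB10 (1.05 ± 0.13), ERAP1 (0.91 ± 0.18) and TAP1 (0.71 ± 0.12), each with an edgeR adjusted p of 0.00092 or less. As a description, TAPBPL was at 1.93 ± 0.75 and TAPBP at -0.91 ± 0.48. Without wild-type IFNL3 replicate 2 TAPBPL was at 3.38, and without optimized IFNL3 replicate 1 TAPBP was at -2.24. TAP2 was lower, by -0.67 ± 0.23 (edgeR adjusted p = 0.034), a call that was lost without IFNL3 replicate 1 (-0.60) or 2 (-0.74) of wild-type cells, without replicate 2 of optimized cells (-0.39) and with the length trend removed (-0.43).

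The responses were also compared directly, as the change over untreated cells in optimized minus that in wild-type cells. The response to H11 was larger in optimized cells for 7 members, against 19.5% of all genes, and so was the response to IFNL3, against 11.1%. They were the same 7 genes: PSMB8, PSMB9, PSMB10, PSME1, PSME2, TAP1 and ERAP1. For TAP2 and TAPBP the differences in response to H11 were -0.30 ± 0.34 and -1.94 ± 0.98, and to IFNL3 -0.70 ± 0.34 and 0.04 ± 0.86, none past the threshold. Without untreated optimized replicate 2, the difference for TAP2 with IFNL3 was -1.08 and passed. With the length trend removed, the differences in response to H11 were 3.17 for PSMB9, 2.66 for PSMB8, 1.40 for PSME2 and 1.24 for PSMB10, each over 1.5 times smaller as a fold. PSME1 in the response to H11 (0.50) and PSME2 in the response to IFNL3 (0.56) then no longer passed. The response to IFNw gave 0 called members and 0.00% of genes by edgeR, with 3 members and 633 genes at an unadjusted p under 0.05 and 0 genes called by DESeq2.

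The 3 ligands were set against each other within each genotype at the same dose. In optimized cells H11 and IFNw gave 0 called members and 0.00% of genes by edgeR's quasi-likelihood test, with 0 members and 279 genes at an unadjusted p under 0.05 and 0 genes by DESeq2. The 95% interval of the difference, IFNw minus H11, ran from -0.31 to 0.21 for PSMB8, from -0.28 to 0.39 for PSMB9 and from -0.14 to 0.34 for TAP1. The interval for TAPBP, from -0.06 to 2.89, was much wider. H11 gave higher levels than IFNL3 for 5 members in optimized cells, against 10.7% of all genes. They were PSMB9 (log2 1.33 ± 0.16 SE), PSME2 (1.12 ± 0.13), PSMB10 (1.04 ± 0.12), TAP1 (0.88 ± 0.11) and PSMB8 (0.87 ± 0.12), each with an edgeR adjusted p of 0.00020 or less. The same 5 were higher with IFNw than with IFNL3, against 11.5% of all genes, by between 0.82 ± 0.12 (PSMB8) and 1.39 ± 0.16 (PSMB9). PSME1 differed by 0.12 ± 0.14 between H11 and IFNL3, and ERAP1 by -0.15 ± 0.18, neither past the threshold. TAPBP differed by -1.73 ± 0.66, and by -2.38 without IFNL3 replicate 2. These comparisons share the IFNL3 libraries.

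In wild-type cells H11 and IFNL3 gave 0 called members and 0.00% of genes by edgeR, with 0 members and 158 genes at an unadjusted p under 0.05 and 0 genes by DESeq2. The difference for PSMB8, H11 minus IFNL3, was 0.01 with a 95% interval from -0.26 to 0.28, and that for TAP1 was -0.07 with an interval from -0.31 to 0.17. IFNw gave higher levels than IFNL3 for 7 of the 8 members there, against 25.9% of all genes, and higher than H11 for 7, against 25.7%. Against IFNL3 the differences ran up to 4.47 ± 0.19 for PSMB9. With the length trend removed, the folds of PSMB8, PSMB9, PSMB10, PSME1 and PSME2 were 1.51 to 1.75 times smaller in both comparisons, with PSMB9 at log2 3.67 against IFNL3 and 3.96 against H11. TAP2 was the member of these 8 that did not pass, at -0.35 ± 0.23 against IFNL3, and at 0.19 with the length trend removed. As a description, TAPBP was at -0.55 ± 0.48 against IFNL3. For both genes the IFNw libraries lay below the IFNL3 libraries. With the compared groups fitted alone, TAP2 was past the threshold (-0.32). ERAP1 was higher with IFNw by 0.55 ± 0.18 against IFNL3 and 0.48 ± 0.18 against H11. Those calls were lost without IFNw replicate 1 (0.55 and 0.49), and the first also without IFNL3 replicate 2 (0.46), the second also without IFNw replicate 2 (0.53) or H11 replicate 2 (0.38).

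Among the constitutive catalytic subunits that PSMB8, PSMB9 and PSMB10 replace, PSMB5 and PSMB6 rose with IFNw and PSMB5 with H11 in optimized cells, against 17.5% and 17.2% of all genes. All 3 rose with IFNw in wild-type cells, against 16.6%. The other changes of PSMB5, PSMB6 and PSMB7 did not pass the threshold and lay between -0.36 and 0.21 on the log2 scale. PSMB5 rose by log2 0.78 ± 0.13 with IFNw in optimized cells, against 3.03 ± 0.13 for PSMB8. The part of the length trend in the changes of these constitutive subunits was not tested. Reads of PSMB8 per read of PSMB5 averaged 1.72 ± 0.03 with IFNw, 1.85 ± 0.08 with H11, 1.51 ± 0.16 with IFNL3 and 0.362 ± 0.004 untreated in optimized cells (SD, n = 2 each). In wild-type cells the ratio was 1.82 ± 0.04 with IFNw, 0.312 ± 0.013 with H11, 0.309 ± 0.005 with IFNL3 and 0.374 ± 0.022 untreated. The ratio of PSME2 to PSME1 reads averaged 0.722 with IFNw, 0.688 with H11, 0.343 with IFNL3 and 0.284 untreated in optimized cells, so the PA28 subunits did not change in step.

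Of 11 other core particle subunits, 8 rose with IFNw and 8 with H11 in optimized cells, 5 with IFNL3, and 8 with IFNw in wild-type cells, against 17.5%, 17.2%, 7.26% and 16.6% of all genes. In wild-type cells with H11, 2 rose (PSMA3 and PSMB2), against 18.2%, and 3 fell (PSMA2, PSMA6 and PSMB4), against 20.6%, with the same 5 calls for IFNL3, against 18.7% and 21.1%. These wild-type counts with H11 and IFNL3 are near the shares of all genes. Among 8 other activators and assembly factors, 5 rose with IFNw in each genotype, against 17.5% of all genes in optimized and 16.6% in wild-type cells, among them the immunoproteasome maturation factor POMP (1.16 ± 0.26 in optimized cells, 1.00 ± 0.25 in wild-type cells) and the assembly chaperone PSMG4 (1.39 ± 0.16 and 1.5 ± 0.16). With H11 in optimized cells 5 rose, against 17.2%, and 2 fell, against 15.2%, and with IFNL3 2 rose, against 7.26%, while PSME4 fell with IFNw there (-0.51 ± 0.17). In wild-type cells with H11, 2 rose (PSME3 at 0.39 ± 0.13 and PSME4 at 0.81 ± 0.16), against 18.2%, and 3 fell, against 20.6%, PSMG4 by 0.93 ± 0.16. POMP was at -0.05 ± 0.25 with H11 and 0.46 ± 0.25 with IFNL3 there, not past the threshold. The part of the length trend in the changes and counts of these subunits and factors was not tested.

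Among 7 tested peptidases other than ERAP1, ERAP2, its partner in trimming, rose by 2.25 ± 0.70 with IFNw and 2.03 ± 0.72 with H11 in optimized cells. In wild-type cells ERAP2 rose by 2.90 ± 0.81 with IFNw, 3.14 ± 0.76 with H11 and 3.18 ± 0.76 with IFNL3. The cytosolic aminopeptidase LAP3 rose with each ligand in optimized cells, by between 0.92 ± 0.14 and 1.10 ± 0.14, and with IFNw (0.74 ± 0.14) and IFNL3 (0.40 ± 0.14) in wild-type cells. In all, 2, 2 and 1 of the 7 rose with IFNw, H11 and IFNL3 in optimized cells and 2, 2 and 4 in wild-type cells, where all genes gave 17.5%, 17.2% and 7.26% in optimized and 16.6%, 18.2% and 18.7% in wild-type cells. Counts of 1 or 2 of 7 are near those shares. Falls numbered 2 with IFNw and 2 with H11 in optimized cells, against 15.9% and 15.2% of all genes, and 4 with IFNw in wild-type cells, against 14.8%, with BLMH and NPEPPS among them each time. Of 4 loading chaperones, the lectin CALR rose by 1.29 ± 0.38 with IFNw and 1.33 ± 0.38 with H11 in optimized cells, PDIA3, which is bound to TAPBP in the loading complex, rose by 0.70 ± 0.25 with IFNw, and CANX rose by 0.84 ± 0.19 with IFNL3. In wild-type cells UGGT1, which checks the folding of glycoproteins, rose by 0.69 ± 0.17 with H11 and 0.66 ± 0.17 with IFNL3. All genes had the shares given above for the peptidases, and so few rises among 4 chaperones are not read as a result about them. The part of the length trend in the changes of these peptidases and chaperones was not tested.

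Across the 16 libraries the members formed a tight group and a loose remainder. Pearson's r of log2 CPM was 0.994 between PSMB8 and PSMB9, 0.988 between PSMB10 and PSME2 and 0.987 between PSMB9 and PSME2, but 0.886 between PSMB9 and TAP1. TAP2 stood apart, with r = 0.183 with PSMB8 and 0.597 with TAP1, and TAPBP had r between -0.299 (PSME1) and 0.609 (TAP2). Over all other tested genes, those most like PSMB8 were RARRES3 (0.996), IDI1 (0.995) and LY6E (0.991), and the same 3 were most like PSMB9. HLA-E (0.990) was nearest to PSMB10, UBE2L6 (0.988) to PSME1, MAD2L1BP (0.990) to PSME2, IFI35 (0.985) to TAP1, SP100 (0.949) to ERAP1, SNHG15 (0.971) to TAPBPL, LOC388796 (0.939) to TAP2 and WDR52 (0.902) to TAPBP. These correlations describe 16 libraries that share treatments, depth and the trend with transcript length.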

How the data were processed

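RNA was counted in 16 HEK293 libraries. The authors deposited 1 table per library with raw read counts per target, whole numbers without normalization, as the file headers and values show. The submitters' processing notes name hg19. The sources used here do not give the aligner, counter, strand use or target positions. Of 20812 targets, 10 spike-ins (at most 1 read) were left out. Tests used edgeR 4.0.16 (R 4.3.3) with filterByExpr, TMM factors and a quasi-likelihood fit of all 16 libraries with 1 coefficient per group (common dispersion 0.0176), Benjamini-Hochberg adjusted over 12704 genes with a threshold of 0.05. All 10 members passed the filter, TAPBP and TAPBPL only through libraries of treated cells. CPM uses TMM-scaled totals. The steps were tested on simulated data. Where a group had no read, 3 reads over the group served as its upper limit. Intervals from the fit include the spread between libraries. The exact counting intervals and the limits of 3 reads cover counting error only. Collapsing of reads by molecule is not stated.

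The members and gene lists were chosen with earlier results of these data known. Named genes are the members, the called genes of the lists and each member's 3 nearest genes by correlation; not all of them are reported here. The alternatives tried were DESeq2 1.42.0, edgeR with DESeq2 size factors, no filter on low counts, the replicate block, the compared groups alone, a fit that left out all wild-type cells given a type III ligand, each library left out, and a transcript length offset (natural spline, 5 degrees of freedom, lengths from GENCODE for 95.2% of tested genes). PSMB8 and TAP1 overlap an antisense gene, and without stated strand use their reads cannot be told apart from it. Promoter windows came from RefSeq.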

Additional observations from a re-analysis of the deposited data

Results flagged for a closer look

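The change over untreated cells differed between the genotypes for 7 of the 8 members that pass the low-count filter on untreated libraries alone, with each type III ligand. This is by the test of the difference itself in edgeR's quasi-likelihood fit. Of all genes, 19.5% had a larger response in optimized cells with H11 and 11.1% with IFNL3. With H11 the change in optimized minus that in wild-type cells was 3.33 on the log2 scale for PSMB8, 3.98 for PSMB9, 1.85 for PSMB10, 1.22 for PSME1, 2.21 for PSME2, 1.94 for TAP1 and 1.14 for ERAP1. With IFNL3 it was 2.47 for PSMB8, 2.36 for PSMB9, 0.96 for PSMB10, 1.09 for PSME1, 1.00 for PSME2, 0.99 for TAP1 and 1.35 for ERAP1. All lay in the direction of a larger change in optimized cells. The part that the trend with transcript length plays was tested only by its removal, after which 12 of these 14 differences passed the threshold. The share of all genes that passed in that fit is not given here, so that count is not read as a result about the members. With the trend removed, the differences with H11 were 2.66 for PSMB8, 3.17 for PSMB9, 1.24 for PSMB10 and 1.40 for PSME2. That of PSME1 was 0.50, not past the threshold. Each of these 5 was over 1.5 times smaller as a fold.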

How the results depend on the processing

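Of 212 recomputed counts of called members, 209 stayed within 1.5 times the reported count. These counts are over all 10, so they include TAPBP and TAPBPL. The exceptions were wild-type cells with H11 (5 called) and with IFNL3 (6 called) under the transcript length offset, against 3 each, and untreated optimized against untreated wild-type cells, with 0 to 2 called when libraries were left out in turn. The cause was not tested. Of 2120 recomputed member values, 2078 kept their side of the threshold. Of those past it in either fit, 0 reversed in sign, and changes of sign among values past it in neither were not counted. The others were 19 that passed only under the alternative and 23 that passed only as reported. Of these 42 changed calls, 32 were in TAP2, TAPBP, TAPBPL or ERAP1. With the replicate block, 1 call changed, that of TAPBPL between optimized and wild-type cells with IFNL3 (1.96), which is not read as a result. Same-numbered libraries deviated together only weakly (r between 0.085 and 0.212 over 28 pairs of groups, 27 over 0.1), so the numbers were not taken to pair the samples. Where 1 library of a group was left, it was assumed to vary like those of other groups. The few reads of TAPBP and TAPBPL give them wide intervals.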
